A study of Mus musculus with 13 samples.

Results

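The genes described here encode the nuclear-encoded subunits of the mitochondrial respiratory chain and of ATP synthase, with a few of their assembly factors. Members were all genes whose symbol in the platform annotation begins with Nduf (complex I), Sdh (complex II), Uqcr (complex III), Cox4 to Cox8 (complex IV) or Atp5 (ATP synthase, complex V). Cox7a1 and Cox8b, isoforms that serve as brown fat markers here, were left out. The rule found 71 of the 8251 genes named on the array, covered by 97 probe sets, and each gene was represented by its brightest probe set. There were 31 members in complex I, 6 in complex II, 7 in complex III, 13 in complex IV and 14 in ATP synthase.

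The samples were aortae of C57BL/6 mice (written c57/Bl6 in the labels), with no genotype, treatment, sex or age given. After 2 weeks of 12 h light and 12 h dark the animals spent 36 h in constant darkness, and aortae were then collected every 4 h for 48 h. Each of the 12 time points, CT18 to CT62 in circadian time (CT, hours), is 1 pool of 6 aortae on a 1-colour oligonucleotide array. CT18 has 2 arrays, which were averaged as 1 pool because the labels do not say whether they come from separate pools.

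Complex I and complex II pass electrons from NADH and succinate to ubiquinone, complex III passes them on to cytochrome c, and complex IV reduces oxygen. Complexes I, III and IV pump protons across the inner mitochondrial membrane, and ATP synthase uses the gradient to make ATP. In tissues with a strong clock, some genes of oxidative metabolism are known to cycle. Brown fat and striated muscle are rich in mitochondria, and both lie next to or reach the aorta.

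A filter on low signal (mean log2 intensity of at least 5.60, or 48.5 on the linear scale) kept 68 of the 71 members. The exceptions were Ndufc2 and Ndufa12, accessory subunits of complex I, and Cox8a, the widely expressed isoform of complex IV subunit 8. Ndufa12 was at the floor of measurement (intensity 36.7) in all 12 pools, Cox8a in 10 and Ndufc2 in 5. Intensities of different probe sets are not on a common scale, so levels are compared between pools and not between genes.

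Nuclear genes of the respiratory chain are known for promoters that bind NRF1, ETS family factors such as GABP, and YY1. RefSeq promoter windows (mouse build GRCm38.p6, from 250 bases before to 50 bases after the annotated start) existed for 58 of the 71 members. On both strands, the ETS family core CCGGAAG lay in the windows of 18 of 58 members (31%), against 8.86% of all 32851 windows and 14.4% of those of genes on the array. The NRF1 sequence GCGCANGCG was found for 15 members (25.9%), against 6.25% and 11.1%. The YY1 sequence AAGATGGC was found for 8 (13.8%), against 2.75% and 3.73%, and shares the letters AAG with the ETS core. At least 1 of these 3 sequences was present for 35 of 58 members (60.3%), in 16% of all windows and in 25.7% of those of array genes. For 21 of the 58 members (36.2%), at least part of the 250 bases before the start lies in another RefSeq gene, such as Gabpa for Atp5j. This share was not taken for other genes.

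Sequences bound by clock factors were found for few members, and they were also rare in the windows of other genes. The E-box CACGTG, bound by CLOCK and BMAL1, was found for 5 of 58 members (8.62%), against 7.15% of all windows and 9.55% of those of array genes. These members were Atp5g1, Atp5l, Atp5pb, Ndufa7 and Ndufv1. The D-box TTATGTAA was found for 1 member, Cox7b (1.72%, against 0.938% and 0.571%). The ROR element AGTAGGTCA was found for 0 (0.192% and 0.119%). The estrogen-related receptor element TCAAGGTCA was found for Sdhd alone (1.72%, against 0.423% and 0.262%), and the CCAAT box for 24 members (41.4%, against 37.4% and 37%). Of the 8 motifs searched, each match is only a run of letters in the window.

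The 200 bases before the annotated start are shown for 5 members, with the matches in capitals and CCAAT not marked. Cox6a1 (chr5:115348959-115349158, minus strand) shows the nuclear respiratory pattern, with NRF1 matches at -162 and -117 and an ETS match at -16 from the start. Uqcr11 (chr10:80406822-80407021, minus strand) has an ETS match at -66, and Atp5g2 (chr15:102671048-102671247, minus strand) overlapping NRF1 matches on both strands at -42. Ndufv1 (chr19:4012756-4012955, minus strand) has an E-box at -169, and Cox7b (chrX:106015500-106015699, plus strand) has the D-box at -192. An NRF1 match of Uqcr11 that starts at -5 and runs past the start is not shown. All are written 5' to 3' in the direction of the gene.
Cox6a1: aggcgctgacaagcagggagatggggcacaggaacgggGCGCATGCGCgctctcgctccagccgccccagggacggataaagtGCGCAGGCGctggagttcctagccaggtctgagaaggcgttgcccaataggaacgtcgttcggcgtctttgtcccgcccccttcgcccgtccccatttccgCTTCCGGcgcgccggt
Uqcr11: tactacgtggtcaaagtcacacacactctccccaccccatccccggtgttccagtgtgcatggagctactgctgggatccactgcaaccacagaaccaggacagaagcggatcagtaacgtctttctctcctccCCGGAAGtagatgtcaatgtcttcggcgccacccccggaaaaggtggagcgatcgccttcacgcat
Atp5g2: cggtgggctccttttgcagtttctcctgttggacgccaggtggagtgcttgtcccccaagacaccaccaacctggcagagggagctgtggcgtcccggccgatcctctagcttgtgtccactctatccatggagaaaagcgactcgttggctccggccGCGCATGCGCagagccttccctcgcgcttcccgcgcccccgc
Ndufv1: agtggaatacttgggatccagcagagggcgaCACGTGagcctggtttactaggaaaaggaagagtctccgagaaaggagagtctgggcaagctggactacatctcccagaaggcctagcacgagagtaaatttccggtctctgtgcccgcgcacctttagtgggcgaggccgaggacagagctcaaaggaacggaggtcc
Cox7b: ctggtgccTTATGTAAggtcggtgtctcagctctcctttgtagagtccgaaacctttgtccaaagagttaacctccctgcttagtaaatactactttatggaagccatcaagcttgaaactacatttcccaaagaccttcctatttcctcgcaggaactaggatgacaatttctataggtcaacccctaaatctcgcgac

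Across the 12 pools most members varied little. The ratio of the highest to the lowest pool had a median of 1.44 over the 68 members, was under 1.5 for 43 and over 2 for 7. The steadiest was Cox6c, a small complex IV subunit, at 9508 (CT18) to 11276 (CT46) with a median of 10666. Atp5a1, the alpha subunit of the catalytic head of ATP synthase, lay between 7339 and 9019 with a median of 8261. Ndufs1, the iron-sulfur core subunit of complex I, lay between 2375 and 3032 with a median of 2575. The 7 members with a ratio over 2 were Cox6a2, Cox5a, Cox6b2 and Cox8c of complex IV, Ndufa1 and Ndufa10 of complex I, and Atp5g1 of ATP synthase.

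The pair of CT18 arrays shows how far arrays of 1 time point differ, which may include a difference between pools. The 2 arrays differed by a median of 0.142 (log2, absolute difference) over the members, beside a median SD over the 12 pools of 0.156. For the 53 members with a mean intensity of at least 1000 these values were 0.138 and 0.151. Over all 7453 probe sets kept they were 0.193 and 0.329. With a single such pair, these values set the sizes side by side and are no test. The second CT18 array read lower for 49 of 68 members, with a median difference of -0.10. Among bright members it read lower for 43 of 53 (81.1%, median -0.12), and among the 675 bright probe sets of other genes for 68.9% (median -0.07), while the median over all probe sets kept was 0.02.

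**Figure D1:**
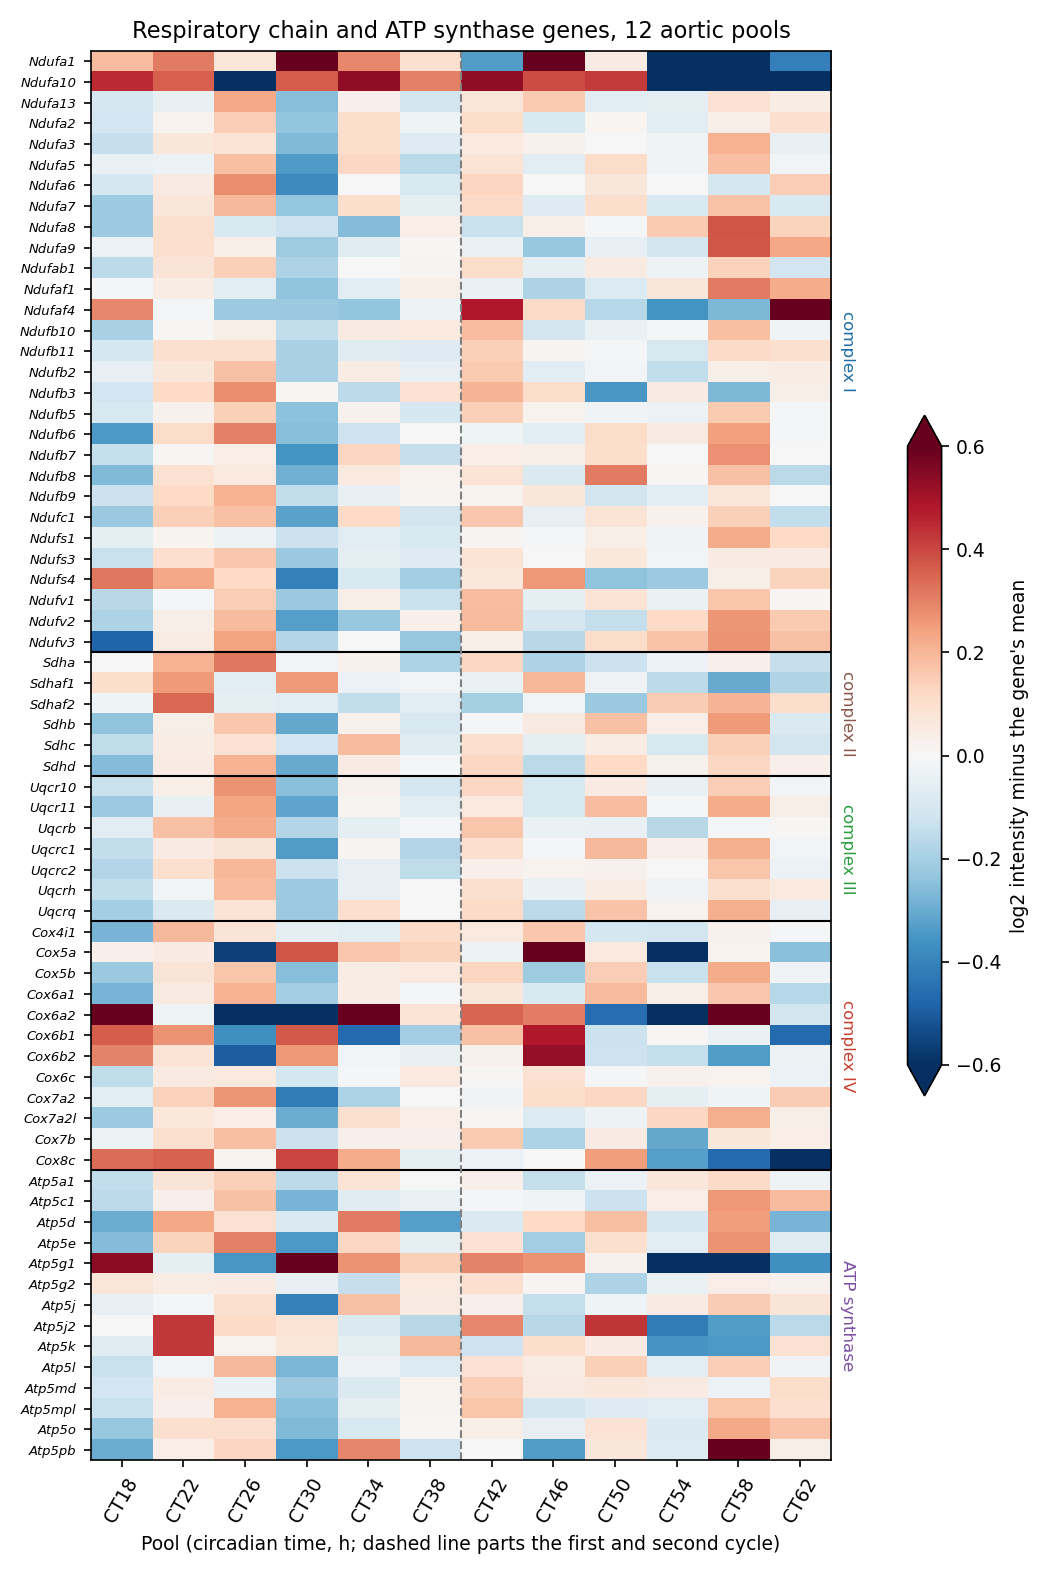
Log2 intensity minus the gene's own mean for the 68 members past the filter (rows, grouped by complex) in the 12 pools (columns, circadian time in hours). Blue columns at CT30 and CT18 and red columns at CT26 and CT58 run across most rows, while dim genes such as Ndufa10, Ndufa1 and Atp5g1 follow other patterns; colours end at 0.6.

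The series asks which aortic transcripts keep a 24-h rhythm without a light cycle. None of the 68 members passed the test for a 24-h rhythm (limma moderated F test, adjusted over 7453 probe sets, threshold 0.05), where 26 probe sets did (0.349%). At an unadjusted p under 0.05 there were 2 of 68 members (2.94%), against 9.96% of all probe sets. The fitted amplitude, the distance from mean to peak in log2 units, had a median of 0.06 in members. It was 0.18 over all probe sets and 0.09 over the 733 probe sets of mean intensity of at least 1000, members included.

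The same fit gives a bound on the size of a rhythm. The amplitude plus its 95% error margin had a median of 0.198 over the members. It was under 0.25 for 49 of 68 members and under 0.5 for 60. Among the 53 bright members it was under 0.25 for 46 and under 0.5 for 52. These bounds hold for that fit alone. The median amplitude of the members was 0.09 without CT30 and 0.11 without CT18, CT34 and CT58, and 0.12 with tissue markers, 0.10 with the array 5th percentile and 0.18 with the brown fat score as covariates. A p that misses the threshold does not show that a gene is without rhythm. Fitted peaks of the 68 members fell in every part of the cycle, 19 between CT0 and CT6, 11 to CT12, 13 to CT18 and 25 to CT24, against 22.6%, 23.1%, 19.4% and 34.9% of all probe sets.

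**Figure D2:**
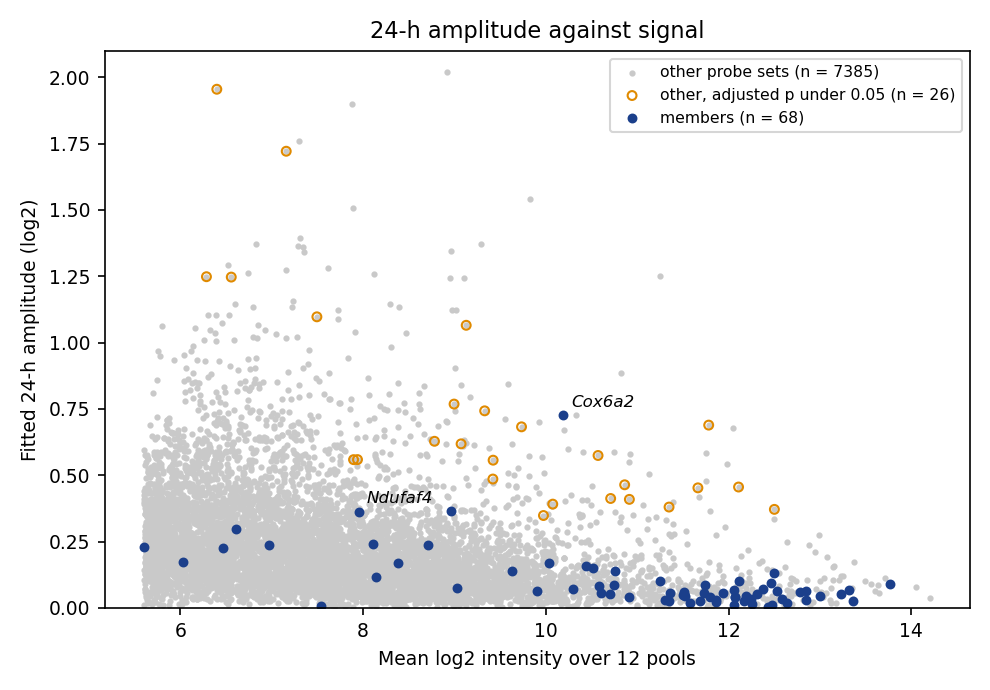
Fitted 24-h amplitude (log2) against mean log2 intensity over 12 pools, for the 68 members (dark blue), the other probe sets kept (grey) and the 26 of these with an adjusted p under 0.05 (orange rings). Most members lie low at the bright end, and Cox6a2 has the highest amplitude among them, 0.73.

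The smallest p belonged to Ndufaf4, an assembly factor of complex I. Its intensity by pool was 302 at CT18, 246 at CT22, 213 at CT26, 212 at CT30, 210 at CT34 and 242 at CT38. In the second cycle it was 345 at CT42, 267 at CT46, 219 at CT50, 193 at CT54, 205 at CT58 and 382 at CT62. The CT18 and CT42 pools, 24 h apart, were the highest but for CT62, while CT38, 24 h before CT62, was not high. The fitted amplitude was 0.36 ± 0.09 (SE, 12 pools) with a peak at CT17.4 (unadjusted p = 0.0044, limma adjusted p = 0.232), and the adjusted p ranged from 0.151 to 0.776 over 29 alternatives.

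The next members by p were Cox6a2, described with the muscle markers, and then Atp5j2, Sdhaf1, Cox7a2 and Atp5k. Atp5j2, a subunit of the membrane part of ATP synthase, ran from 206 (CT54) over a median of 268 to 371 (CT50), with an amplitude of 0.24 ± 0.10. Its highest pools, CT22 and CT50, are not a cycle apart. Sdhaf1, which assists assembly of the iron-sulfur subunit of complex II, ran from 1408 (CT58) over 1701 to 2074 (CT22), with an amplitude of 0.14 ± 0.06. Cox7a2, the widely expressed isoform of complex IV subunit 7a, ran from 4325 (CT30) over 5734 to 6947 (CT26). Its amplitude was 0.13 ± 0.07. Atp5k, subunit e of ATP synthase, ran from 1146 (CT54) over 1500 to 1962 (CT22), with an amplitude of 0.15 ± 0.08. The limma adjusted p of these genes lay between 0.576 and 0.675.

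The second cycle was compared with the first, CT42 to CT62 against CT18 to CT38, with the 24-h terms in the fit. No member passed (limma, adjusted), nor did any of the 7453 probe sets (0%). At an unadjusted p under 0.05 there were 3 members (4.41%), against 7.54% of all probe sets. Without CT26 there were 14, against 10.8% of all probe sets, and without CT22 there were 7, against 6.41%. A fit added after seeing the data took pools 24 h apart as pairs in place of the 24-h terms. There 0 members passed (limma, adjusted) and 6 had an unadjusted p under 0.05, against 8.06% of all probe sets. Of the 68 members, 53 were higher in the second cycle, with a median difference of 0.06 (log2). The median was -0.03 over all probe sets, of which 43.4% were higher, and 0.05 over bright ones. This direction was not stable. Without CT30, 40 members were higher with a median of 0.01, and without CT58, 41 with a median of 0.03. With the brown fat score as a covariate 27 were higher and 41 lower, with a median of -0.02.

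The 3 members with the smallest p for the cycles moved in both directions. Cox8c, known as a testis isoform of complex IV subunit 8, was at 403 to 553 in the first cycle and 257 to 499 in the second, a difference of -0.43 ± 0.13 (SE; limma adjusted p = 0.634). Ndufa1, a small accessory subunit of complex I, ran from 53.3 (CT58) over 104 to 166 (CT30), with a difference of -0.57 ± 0.24. Atp5md, a small subunit of ATP synthase, ran from 6341 (CT30) over 7531 to 8164 (CT42), with a difference of 0.13 ± 0.06. The first-cycle and second-cycle pools of each of these genes overlapped.

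A 12-h component was called for 0 members and 0% of all probe sets (limma, adjusted). At an unadjusted p under 0.05 there were 3 members (4.41%, against 5.6%). Without CT42 there were 16, against 7.21% of all probe sets. Atp5d, the delta subunit of the ATP synthase head, ran from 1104 (CT38) over 1394 to 1725 (CT34), with a 12-h amplitude of 0.23 ± 0.05 (SE; limma adjusted p = 0.842). At CT18 its arrays read 1484 and 860, a wider gap than for most members. The others were Cox6a2 (0.65 ± 0.20) and Cox7a2 (0.16 ± 0.05).

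The members shared a rise and fall from pool to pool, part of which other bright probe sets also showed. In CT22, 57 of 68 members were above their own mean, in CT26 55, in CT42 54 and in CT58 53. Among the 675 bright probe sets of other genes the shares were 54.5%, 65.9%, 63.3% and 60.7%. In CT30 there were 11 members, in CT18 13 and in CT54 21, beside 28.9%, 27.7% and 50.4% of those other probe sets. CT30 was the lowest pool for 41 of 68 members, and CT26 the highest for 26 and CT58 for 17. Pools of equal circadian time form 6 pairs. With values as deposited, the mean over the members had the same sign in both pools of 5 pairs. Among them were CT30 and CT54, the pools with the 2 lowest means. By the median over members, CT18 (-0.13) was lower than CT54 (-0.04), and fewer members were above their own mean at CT18. The remaining pair was CT18 and CT42. The signs of CT18, CT46, CT50 and CT62 depended on the scaling, and fewer pairs had the same sign after median centring or quantile normalization. At CT46, 30 of 68 members were above their own mean, though the mean over members was above 0. These signs are a description, beside 0 members past the 24-h test.

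The mean over the 68 members was -0.16 ± 0.32 (log2, centred, SD over genes) at CT30 and -0.10 ± 0.24 at CT54. It was 0.09 ± 0.11 at CT22, 0.08 ± 0.13 at CT42 and 0.07 ± 0.28 at CT58. The signs at CT22, CT30, CT42, CT54 and CT58 were the same when arrays were centred on their medians or quantile normalized. The CT18 mean was -0.07 as deposited, -0.13 after median centring and 0.01 after quantile normalization, so that its sign changed. The CT46 mean was 0.02 as deposited, -0.07 after median centring and -0.005 after quantile normalization. Median centring also moved CT62 from -0.03 to 0.08, and quantile normalization moved CT50 from 0.02 to -0.01. These scalings moved the median of all probe sets in a pool by up to -0.12 and 0.11 (log2).

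Other bright probe sets showed part of the same pattern. The median centred value of the 675 bright probe sets of other genes was -0.10 at CT30, -0.10 at CT18, 0.06 at CT26, 0.05 at CT42 and 0.05 at CT58. The 5th percentile of an array, which lies below 0 and reflects the spread of dim probes, was -137 at CT30 and -127 at CT18, where members were mostly low, and -83.8 at CT26 and -70.0 at CT58, where they were mostly high. Other pools went differently, with -123 at CT42, where members were mostly high, -76.1 at CT54, where they were mostly low, and the lowest value, -152, at CT46, where their mean was 0.02. The part of array quality in the shared pattern was not tested beyond the slopes given further on.

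**Figure D3:**
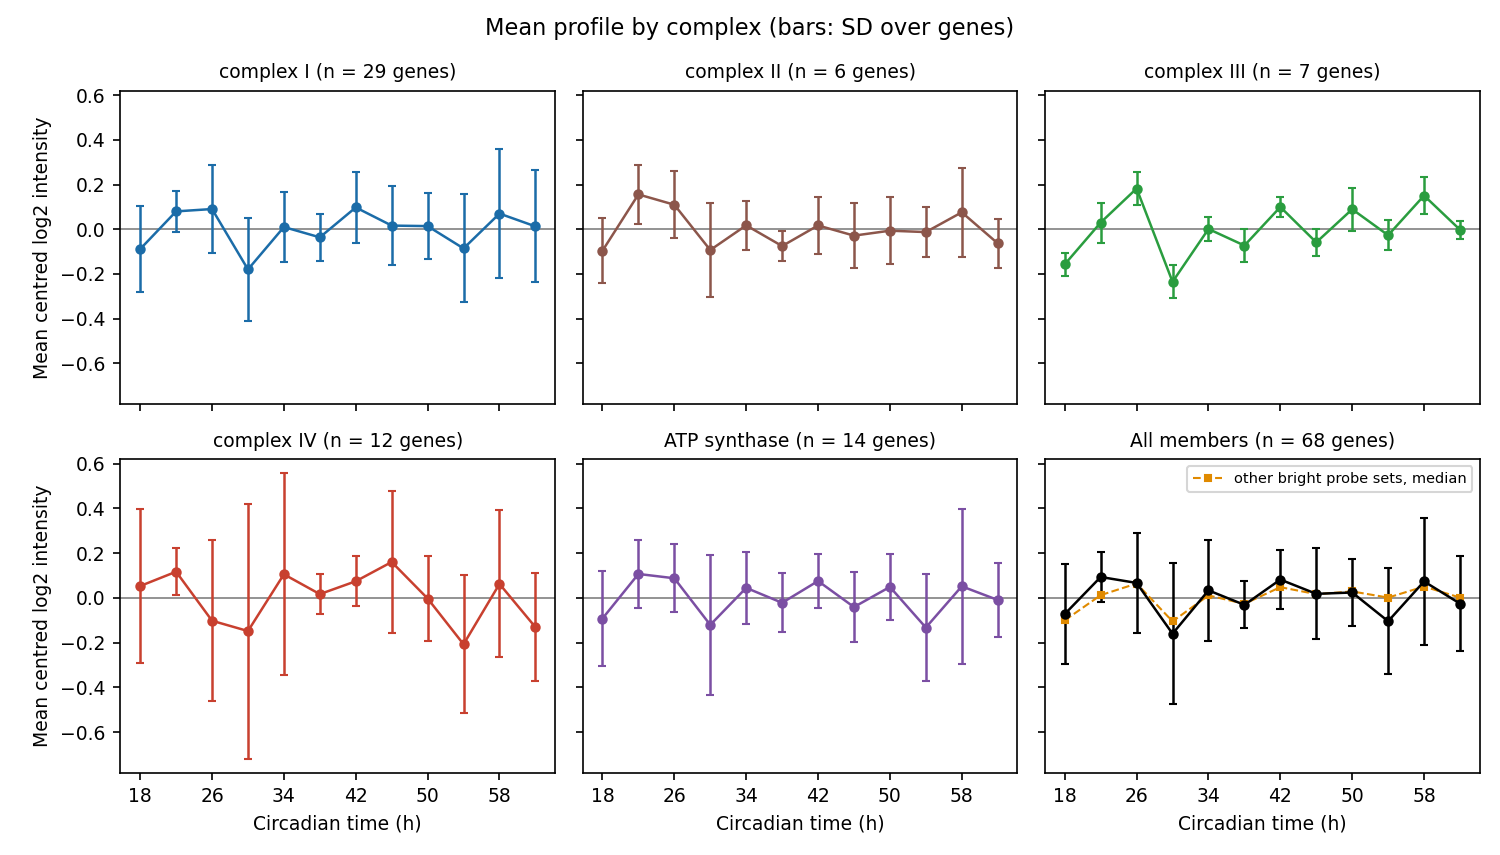
Mean centred log2 intensity of the members of each complex in the 12 pools against circadian time (hours), with bars for the SD over genes, and for all 68 members beside the median of other bright probe sets (orange). The line of the members is a mean that includes dim genes, and the orange line is a median, so their heights are not on a like measure. CT30 is low in all 5 complexes.

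Likeness among members was described by Pearson's r over the 12 pools, which all come from the same arrays. The median r over the 2278 pairs of members was 0.43, and 0.61 among the 53 bright members. It was 0.01 over all probe sets kept and 0.09 among bright probe sets of other genes. Pairs of the same complex had a median of 0.47 and pairs of different complexes 0.42. By complex, the median was 0.77 in complex III, 0.54 in complex I, 0.24 in ATP synthase, 0.13 in complex II and 0.09 in complex IV. Every member of complex III was bright, while the other complexes also held dim members. The medians by complex were not taken for bright members alone, so signal and complex are not parted here.

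In complex I the nuclear core subunits measured were Ndufv1, which binds NADH, Ndufv2, Ndufs1 and Ndufs3. Each was lowest at CT30 and highest at CT26, CT42 or CT58. Ndufv1 read 4369, 4856, 5429, 4204, 5030 and 4470 from CT18 to CT38, and 5571, 4723, 5193, 4761, 5497 and 4937 from CT42 to CT62. Its arrays at CT42, CT58 and CT26 were the highest and those at CT30 and CT18 the lowest. Ndufv2, an iron-sulfur subunit, ran from 4030 over 5179 to 6077, and Ndufs3, a core subunit of the arm that protrudes into the matrix, from 2916 over 3461 to 3808. In the complex as a whole, 26 of 29 members were below their mean at CT30 and 24 above it at CT26, CT42 and CT58 each.

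The accessory subunits of complex I mostly followed the core, with exceptions. Ndufab1, the mitochondrial acyl carrier protein, ran from 2898 (CT30) over 3318 to 3647 (CT26). Ndufa10 broke the pattern, with 261 to 303 in CT26, CT54, CT58 and CT62 and 615 to 722 in the other 8 pools, so that these groups of pools did not overlap. Those 4 pools have the 4 least negative array 5th percentiles, -83.8, -76.1, -70.0 and -69.4. The slope of Ndufa10 on that percentile was -0.45 ± 0.12 (log2 per SD over pools, SE; limma adjusted p = 0.0264), which restates this split and is no further evidence. It was not past the threshold without a filter, without CT54, CT58 or CT62, or in either fit without several pools.

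In complex II the catalytic subunits are Sdha, the flavoprotein, and Sdhb, the iron-sulfur protein, held by the membrane anchors Sdhc and Sdhd. Sdha ran from 1102 (CT38) over 1249 to 1565 (CT26), and Sdhb from 4304 (CT30) over 5441 to 6359 (CT58). The ranges were 3340 to 4237 for Sdhc and 3746 to 5343 for Sdhd. The assembly factor Sdhaf2, which helps attach the flavin to Sdha, ran from 160 (CT50) over 181 to 237 (CT22). The 2 assembly factors did not share their lowest pool with the subunits they serve.

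Complex III, with bright members only, was the most uniform. All 7 members were below their mean at CT18 and CT30 and above it at CT26 and CT42. Uqcrc1 and Uqcrc2, the core subunits, ran from 3393 (CT30) over 4363 to 4964 (CT58) and from 3769 (CT18) over 4292 to 4893 (CT26). Uqcr10, a small subunit, ran from 5151 (CT30) over 6154 to 7399 (CT26). The mean of the 7 was -0.24 ± 0.07 at CT30 and 0.18 ± 0.07 at CT26 (SD over genes). Uqcrh, the hinge protein near cytochrome c1, ran from 4908 to 6477 and Uqcrq from 8777 to 11885, both lowest at CT30.

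In ATP synthase, the gamma subunit Atp5c1 ran from 2934 (CT30) over 3523 to 4256 (CT58), and Atp5o, which links head and stalk, from 3094 (CT30) over 3782 to 4362 (CT58). Atp5l, subunit g of the membrane part, ran from 7972 over 9510 to 11035. The genes of the c-ring, Atp5g1 and Atp5g2, encode the same mature protein. Atp5g1 ran from 50.9 (CT58) over 94.0 to 157 (CT30), near the filter, and Atp5g2 from 459 (CT50) over 532 to 559 (CT42). CT30, lowest for 9 of the other members of ATP synthase, was the highest pool for Atp5g1.

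Complex IV held the one member that followed a tissue marker list. Cox6a2, the isoform of subunit 6a typical of heart and skeletal muscle, read 2117 at CT18, 1148 at CT22, 664 at CT26, 357 at CT30, 3134 at CT34 and 1239 at CT38. In the second cycle it read 1490 at CT42, 1447 at CT46, 851 at CT50, 683 at CT54, 2151 at CT58 and 1084 at CT62. The highest pools were CT34, CT58 and CT18, and the ratio of highest to lowest was 8.77. The mean centred log2 of the skeletal muscle markers, 17 of 19 past the filter, was also highest in these 3 pools. The summed intensity of the list ran from 7358 (CT54) to 35606 (CT34), and Myh2 was at the floor in every pool. Not every marker followed. Myh4 was highest at CT46 (250) and Myh8 at CT42 (230), and Pvalb read 1024 at CT46 but 945 at CT58.

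The slope of Cox6a2 on the mean centred log2 of these markers was 1.09 ± 0.20 (log2 per unit, SE; limma adjusted p = 0.0180). It was the only member past the threshold, 1 of 68 (1.47%) against 0.537% of all probe sets. At an unadjusted p under 0.05 there were 2 members (2.94%, against 3.25%). Its slope was 0.94 to 1.19 over 27 alternatives, and 1.08 ± 0.50 without CT18, CT34 and CT58, with an adjusted p of 0.989. The adjusted p was above the threshold in 8 of the 27 alternatives, among them the fits without CT18 (0.0611), CT26 (0.0554), CT34 (0.252) or CT58 (0.0620). The same gene had the largest 24-h amplitude of the members, 0.73 ± 0.26 at CT15.3 (limma adjusted p = 0.492). In pooled tissue, more muscle in a pool and more Cox6a2 RNA per cell cannot be told apart.

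Cox6a1, the isoform of most other tissues, read between 11537 (CT18) and 16159 (CT26) with a median of 14375, a ratio of 1.40. Its slope on the muscle markers was -0.05 ± 0.07 (limma adjusted p = 1.000). Ckmt2, the mitochondrial creatine kinase of striated muscle and no member, ran from 181 (CT30) to 2011 (CT34), with a slope of 1.71 ± 0.19 (limma adjusted p = 0.000257). Ndufb3, a complex I subunit, had the next smallest p among members, with 3485 (CT50) over 4571 to 5381 (CT26) and a slope of -0.17 ± 0.07 (limma adjusted p = 1.000). Cox5a, a complex IV subunit near the floor at 36.7 to 116, had a slope of 0.28 ± 0.19.

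**Figure D4:**
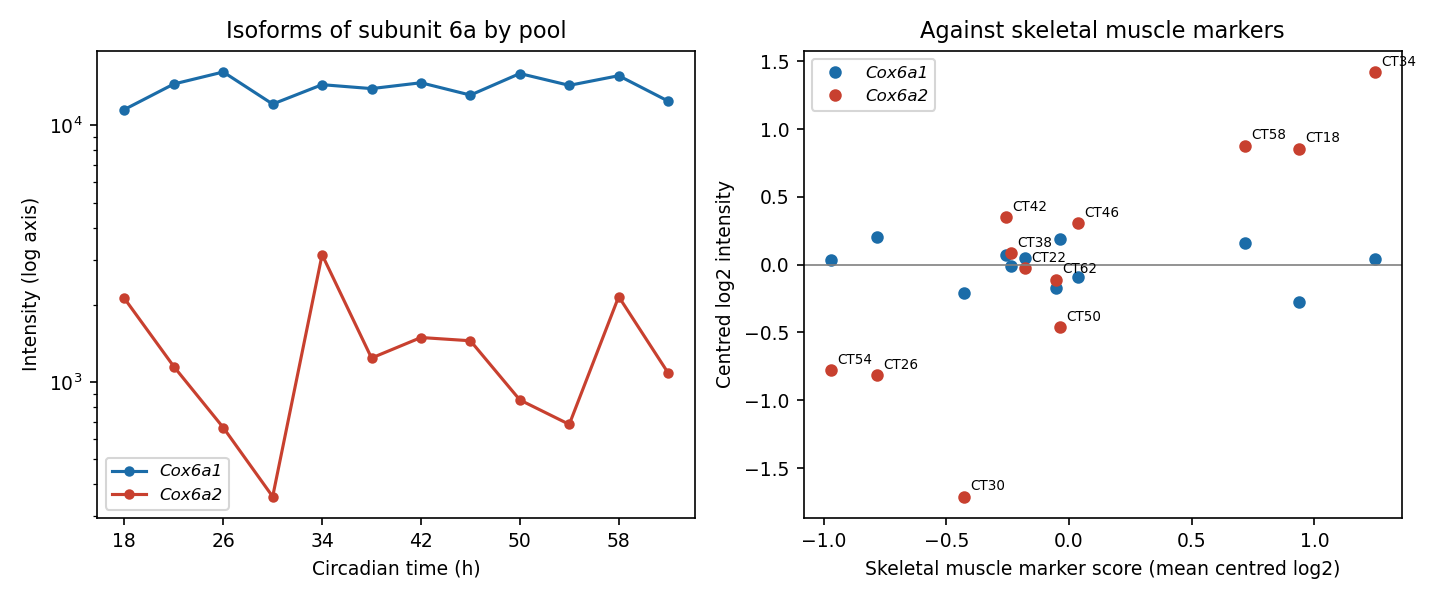
Left, intensity (log axis) of Cox6a1 and Cox6a2 by circadian time (hours). Right, centred log2 intensity of both genes against the skeletal muscle marker score of each of the 12 pools (mean centred log2 of 17 markers); Cox6a2 is highest in the 3 pools with the highest scores, CT34, CT58 and CT18.

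The other complex IV members gave smaller ranges or low signal. Cox4i1, an early-assembling subunit, ran from 1371 (CT18) over 1674 to 1901 (CT22), and Cox5b from 5358 (CT30) over 6627 to 7452 (CT58). Cox7b ran from 4791 (CT54) over 6067 to 6701 (CT26). Cox7a2l ran from 778 (CT30) over 981 to 1114 (CT58). Cox6b2, known as a testis isoform, ran from 237 (CT26) over 328 to 481 (CT46). Its probe set is marked for possible cross-hybridisation. The probe sets used for Cox6a1, Cox6c, Cox4i1, Atp5d, Atp5g2 and Atp5md carry the same mark. So do those of Ndufa3, Ndufb2, Ndufb5, Sdhaf1, Uqcrb and Uqcrc2.

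Atrial muscle and brown fat markers were examined in the same way. The atrial markers (10 of 11 kept) summed to 9039 (CT46) to 20309 (CT42), and 0 members followed them (limma, adjusted; 0.107% of all probe sets), with 0 at an unadjusted p under 0.05 (4.86%). The smallest p belonged to Ndufb10 (2291 to 2978, slope 0.16 ± 0.08), Cox7b (0.17 ± 0.09) and Ndufaf4 (0.33 ± 0.20), all with a limma adjusted p of 1.000.

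Some brown fat markers were bright in every pool. Ucp1, the uncoupling protein of brown fat, read 5896 to 10111 and Cidea 7533 to 10320, and the 9 measured markers summed to 25601 (CT18) to 36854 (CT58). Elovl3, at 36.7 to 82.4, and Ppargc1a, at 41.5 to 99.5, were dim. The smooth muscle marker Acta2 read 3777 to 6848. Transcripts of brown fat were thus present in every pool beside those of the vessel wall, and which cells the members' RNA came from cannot be told apart. Of the 9 markers, 1 followed the brown fat score itself after adjustment (limma), and 3 had an unadjusted p under 0.05. Dio2 and Slc27a2 had 24-h amplitudes of 0.80 ± 0.16 and 1.14 ± 0.24, but Cidea and Cox8b 0.03 ± 0.06 and 0.06 ± 0.07. The score thus joins markers of unlike course and is not a measure of brown fat content alone, also when used as a covariate. No member followed it (limma, adjusted, against 0.107% of all probe sets). At an unadjusted p under 0.05 there were 8 members (11.8%, against 15.5%), 5 with a negative slope and 3 with a positive one. The 8 became 0 without CT58 (against 8.10% of all probe sets), 3 without CT54 (11.4%) and 21 with arrays centred on their medians (20.5%). Atp5pb, the stator subunit b of ATP synthase, ran from 829 (CT30) over 1065 to 1613 (CT58), with a slope of 0.74 ± 0.23 (limma adjusted p = 0.203). Sdhaf1 had a slope of -0.44 ± 0.17, and Ndufv3, an accessory subunit of complex I, at 567 (CT18) over 812 to 952 (CT58), a slope of 0.52 ± 0.21.

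Markers of thymocytes, from the thymus that lies above the aortic arch, differed most between pools. Their summed intensity ran from 736 (CT42) to 5688 (CT54), and Rag1, Dntt, Thy1, Cd8a, Cd8b1 and Cd3g were at the floor at CT42. Cd4 and Ptcra, also part of the score, did not follow it. They read 319 and 123 at CT42, and their slopes on the score were 0.06 and 0.02. After adjustment, 0 of 68 members followed the thymocyte score (limma; 0.832% of all probe sets). At an unadjusted p under 0.05, 23 members (33.8%) had a negative slope and 0 a positive one, against 2.83% and 5.09% of all probe sets. Of all 68 slopes 59 were negative, with a median of -0.07 against 0.00 over all probe sets, of which 50.2% were positive. Bright probe sets in general leaned the same way. Among the 675 of other genes 75.6% of slopes were negative, with a median of -0.04. Among the 53 bright members 94.3% were, with a median of -0.08.

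The negative slopes were spread over all complexes, with 10 of 29 members of complex I, 3 of 6 of II, 4 of 7 of III, 3 of 12 of IV and 3 of 14 of ATP synthase at an unadjusted p under 0.05. The smallest p belonged to Ndufv1 (-0.10 ± 0.03, limma adjusted p = 0.195), Uqcr10 (-0.11 ± 0.03, 0.222) and Ndufa7 (-0.11 ± 0.03, 0.246). Ndufa7, an accessory subunit, read 4135 (CT30) to 5573 (CT26) with a median of 4890. All 23 were among the 53 bright members (43.4% of these), and among the 675 bright probe sets of other genes 11.7% had such a slope. Of 9 brown fat markers, 3 had a negative slope on the thymocyte score and 6 a positive one, with a median of 0.05, and 2 of the negative slopes had an unadjusted p under 0.05. All 6 smooth muscle markers past the filter had a negative slope, from -0.18 to -0.03, and 2 had an unadjusted p under 0.05.

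The count of 23 depended on the processing. It was 10 with arrays centred on their medians (against 2.79% of all probe sets), 4 after quantile normalization (2.07%) and 6 without the intensity trend in the variance (1.77%). It was 8 without CT26 (1.76%) and 13 without CT18 (2.32%). Without both CT26 and CT42, the pools lowest in thymocyte markers, it was 10 (2.25%). The number of negative slopes stayed between 53 and 61 of 68 under these settings. Whether fewer thymocytes, array scaling or another property of the pools moves with the members was not tested.

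**Figure D5:**
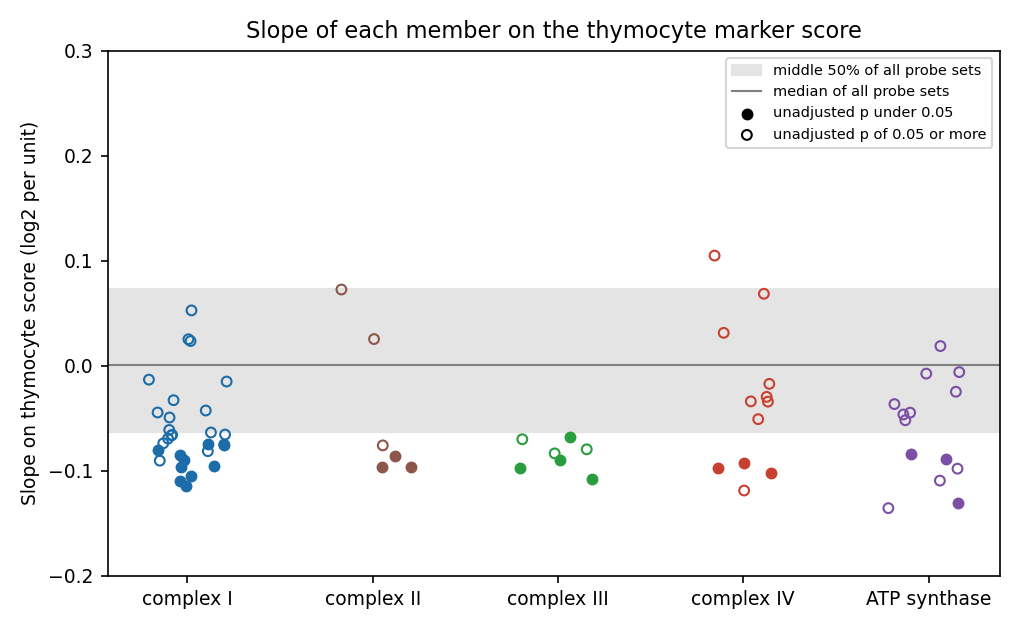
Slope of each member on the thymocyte marker score (log2 per unit of the score) by complex, filled where the unadjusted limma p was under 0.05, beside the median (grey line) and middle 50% (grey band) of all probe sets. 59 of 68 slopes lie below 0, including all 7 of complex III. Of the 675 bright probe sets of other genes, not drawn apart, 75.6% also lie below 0.

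Array quality moved with some members. On the array 5th percentile, a slope examined after the values were seen, 10 of 68 members passed (14.7%; limma, adjusted), close to the 15.2% of all probe sets. Negative slopes belonged to Cox6b2, Atp5g1, Sdhaf1, Ndufa10, Cox6b1 and Ndufa1, and positive ones to Atp5pb, Atp5j, Cox7a2l and Ndufa9. Of the 7 members with a ratio over 2, Cox6b2, Atp5g1, Ndufa10 and Ndufa1 were in this group, as were 2 of the 3 genes with the smallest p for brown fat. The count of 10 ran from 0 to 21 over 23 alternatives.

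Other probe sets of the same genes were available for 19 members. Of 26 such probe sets 9 passed the filter, with a median r of 0.27 to the probe set used, and none was called for a 24-h rhythm (limma, adjusted; unadjusted p 0.227 or higher). Among those that did not pass, the other probe sets of Cox8c and Ndufaf4 were at the floor in all 12 pools, and that of Ndufa1 in 11. The second kept probe set of Ndufb2 had an r of 0.69, and that of Cox4i1 an r of -0.25. For Atp5d the other kept probe sets had r of 0.26, 0.43 and 0.08. Profiles of single genes with small ranges thus differed between their own probe sets.

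In 4 lists of other mitochondrial genes, 0 passed the adjusted threshold of the 24-h test (limma). As 0.349% of all probe sets passed, a count of 0 in lists this short says little. At an unadjusted p under 0.05 the share of all probe sets was 9.96%. Of 15 measured genes of the citrate cycle and pyruvate dehydrogenase, 1 had an unadjusted p under 0.05, Pdhb (5730 to 7213, amplitude 0.11 ± 0.04, peak CT0.9). The next were Suclg2 (0.17 ± 0.07) and Suclg1 (0.10 ± 0.05). Of 14 electron carriers and inner membrane carriers 0 did; the smallest p were those of Ucp3, Etfdh and Ckmt2, with amplitudes of 0.42 ± 0.18, 0.13 ± 0.06 and 0.84 ± 0.40. Of 5 assembly genes 0 did, with Cox18 at 0.14 ± 0.06, Surf1 at 0.17 ± 0.08 and Lrpprc at 0.09 ± 0.09. Of 7 regulators of mitochondrial biogenesis 0 did, with Ppargc1a at 0.36 ± 0.15, Polrmt at 0.63 ± 0.30 and Gabpa, a DNA-binding subunit of the ETS factor GABP, at 0.17 ± 0.09. Negative thymocyte slopes at an unadjusted p under 0.05 were found for 3 of 15 citrate cycle genes and 2 of 14 carriers. They were found for 0 of 5 and 0 of 7 of the others. The share was 2.83% over all probe sets and 11.7% over bright probe sets of genes that are not members.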

How the data were processed

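Probe sets of 13 arrays (12 pools) were analysed from the deposited intensity values, which are linear and whose 2% trimmed mean is 200.03 to 200.04 on every array, so the authors' scaling was kept. The software behind them is not stated in the labels. Values under 36.7, the 20th percentile of positive values, were raised to this floor before taking log2. The CT18 arrays were averaged, and probe sets with a mean log2 of at least 5.60 (40th percentile) kept: 7453 of 12422. Gene names come from the platform annotation (10833 probe sets with 1 gene), checked against RefSeq. Negative values made up 21.3% to 24.2% of an array together with zeros, and 3' to 5' ratios were 1.64 to 2.21 (actin). R 4.3.3 and limma 3.58.1 (lmFit, eBayes with trend) fitted 24-h terms, the cycle, 12-h terms and slopes on marker scores, adjusted by Benjamini-Hochberg over all probe sets kept. Code was tested on simulated data. With 1 pool a time point, the error term is the scatter of pools about the fit. The number of arrays limits the precision.

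The members, lists and tests were chosen with earlier results of these data known. Values in every pool, or lowest, median and highest, are given for the members with the smallest p in each comparison (6 for 24 h, 3 for each other) and for subunits whose role is described; Ndufa10 was picked after its values were seen. Alternatives changed the floor, filter, scaling, probe set rule, variance trend, covariates and pools. Genes found only on probe sets naming several genes are not among the members.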

Additional observations from a re-analysis of the deposited data

How the results depend on the processing

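The count of 0 members past the adjusted threshold held under every alternative run for the 24-h rhythm (29), the cycle (29, with pools 24 h apart as pairs among them), the 12-h component (28), and the atrial, brown fat and thymocyte scores (27 each). For skeletal muscle the count of 1, Cox6a2, became 0 without a filter, with all 4 marker scores in 1 fit, with the 24-h terms as covariates, and without CT18, CT34 and CT58, and lay between 0 and 1 when single arrays or time points were left out. The number of probe sets with a 24-h rhythm, 26, became 4 without a filter, 7 with arrays centred on their medians, 4 without the variance trend, 10 with tissue markers, 3 with the brown fat score and 11 with the array 5th percentile as covariates, 4 without CT18, CT34 and CT58, and 6 without CT26 and CT42 (chosen after seeing the data). Leaving out single arrays or time points gave 8 to 40. The 23 members with a negative thymocyte slope at an unadjusted p under 0.05 became 10 with median centring, 4 with quantile normalization, 6 without the variance trend, 12 without CT18, CT34 and CT58, 13 without CT18, and 10 without CT26 and CT42, and 8 to 27 when single arrays or time points were left out. Ndufaf4's slope on the atrial score, 0.33, became -0.10 with the 24-h terms as covariates. The causes were not tested. Of 667 alternatives for 24 single values of named members, 658 kept direction and side of the threshold, 8 lost the threshold (all Cox6a2) and 1 reversed. Replicate numbers are only names and paired nothing. Members near the floor have the least precise values.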

Other observations

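Some respiratory chain genes were measured only by probe sets that the annotation assigns to several genes, often a gene and a pseudogene or copy, so they were not members. The 2 probe sets of Cox7c, a complex IV subunit, lay between 8758 and 12062 and between 5153 and 7765, with 24-h amplitudes of 0.07 and 0.05. That of Ndufs5, a complex I subunit, lay between 3490 and 4723, with an amplitude of 0.05 and a thymocyte slope of -0.10. The 2 of Ndufs6 had amplitudes of 0.04 each and thymocyte slopes of -0.09 each.

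Over the 12 pools, 15 of 7452 other probe sets had an r over 0.9 with Ndufa10, the complex I member that was low in CT26, CT54, CT58 and CT62. Among them were Ap2a1, Spout1, Top3a, Arhgef2 and Vps52. This set was chosen after the values were seen.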
